A study of Mus musculus with 6 samples.

Results

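The 10 genes described here are Trp53, which encodes the transcription factor p53, its inhibitors Mdm2 and Mdm4, and 7 genes known as targets of p53 (Ccng1, Btg2, Sesn1, Phlda3, Zmat3, Trp53inp1 and Gdf15). They were chosen by symbol, as 10 of the 19179 genes listed in the deposited files, and all 10 were found. The cells were 4T1, a mammary carcinoma line of BALB/C mice, grown for 14 days from wells seeded with a single cell. Clones of 2 kinds were then collected, 10 of each, in 3 batches from 3 independent experiments. Messenger RNA was sequenced in 6 libraries, 3 with the tissue given as breast cancer stem cell (stem-labelled below) and 3 with breast cancer cell (other below). No drug, gene deletion or transgene is named in the labels for either kind, and the strain, the line and the culture time were shared by both. The labels do not say how a clone was assigned to its kind, whether the 10 clones were pooled, or which library belongs to which experiment. They give the medium as 300 µL per well in one protocol and 200 µL in another.

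In cells with intact p53, damage to DNA and other stresses stabilise the protein, which then binds DNA and switches on genes that stop division, repair DNA, change metabolism or kill the cell. Mdm2 marks p53 for degradation and is itself switched on by p53, so that the pair forms a feedback loop. The 4T1 line is known to lack functional p53, and each of the target genes also has inputs that do not pass through p53. The files measure RNA and hold no value for the p53 protein. Transcript of Trp53 was present in every library, so the name p53-deficient describes the line's known protein defect and not an absence of this RNA.

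Levels are in RPKM, reads per kilobase of gene, scaled to a library total that the authors set, and are given as mean ± SD with n = 3 libraries per kind. Changes are differences of log2(RPKM + 1), stem-labelled minus other, ± SE, which understate the change of genes with low values. Adjusted p-values are from limma with Benjamini-Hochberg adjustment over the 10097 genes tested, two-sided, and a gene is called changed at an adjusted p under 0.05. These p-values measure the spread between libraries of 1 kind. In bulk RNA, fewer cells that express a gene and less RNA per cell cannot be told apart.

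Reads in genes numbered 21196572 to 22838870 per stem-labelled library and 15357608 to 16830762 per other library, which was 0.658 to 0.757 and 1.23 to 1.53 of the total implied by the authors' scaling. When values were rescaled to the reads in genes, the median change of all tested genes moved from 0.11 to 0.86, and the calls from 3014 higher and 2563 lower to 5926 higher and 1245 lower. When tested genes were cut by length into 10 equal classes, the median change was -1.17 for the shortest class and 0.72 for the longest. For the tested genes of the 10, changes are therefore also given after rescaling and after correcting for the length and GC content of genes. For Wrap53 and the other pathway genes named they are given in part, and always where one alters the call. They are not given for the cell type markers below. The part of these trends in the results was not tested beyond that. The epithelial markers Krt8, Krt18, Epcam and Cdh1 summed to 910 to 1390 RPKM in stem-labelled libraries, against 1855 to 3368 RPKM. That sum was mostly Krt8 and Krt18. On the deposited scale Epcam was level (55.2 ± 4.78 against 56.2 ± 2.51 RPKM). Cdh1 was higher in the stem-labelled clones on that scale (68.9 ± 9.002 against 15.99 ± 1.98 RPKM, 2.04, limma adjusted p = 0.000149). The 3 blood cell markers measured summed to at most 0.0270 RPKM in any library. The 3 endothelial markers summed to 0.0423 to 0.121 against 0.405 to 2.89 RPKM, which in the other libraries was nearly all Tie1, and the 4 fibroblast markers to 1.68 to 3.38 against 0.396 to 1.01 RPKM, nearly all of it Pdgfra. The fibroblast marker Dcn stood at 0 in all 3 other libraries and in 2 of the stem-labelled ones.

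Of the 10 genes, 6 reached at least 1 RPKM in at least 3 of the 6 libraries and were tested, and 4 (Mdm4, Trp53inp1, Gdf15 and Btg2) did not. Mdm2 and Sesn1 were called higher in the stem-labelled clones, Trp53 and Phlda3 lower, and Ccng1 and Zmat3 did not pass. Of all tested genes 29.9% were called higher and 25.4% lower, so 2 of 6 in either direction is a share near the background. Rescaling called 3 of the 6 higher and 1 lower, where 58.7% and 12.3% of all tested genes were, and limma-voom on the recovered reads called 2 and 2, where 25.8% and 28.4% were. The correction called 2 higher and 3 lower, where 25.9% and 22% of all tested genes were. The groups did not overlap for 6 of the 10 genes, Mdm2, Sesn1 and Zmat3 being higher and Trp53, Phlda3 and Gdf15 lower in every stem-labelled library. Among all genes listed, 26.7% were separated in this way with the stem-labelled libraries higher and 18% with them lower, and among tested genes 35.7% and 27.8%.

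**Figure D1:**
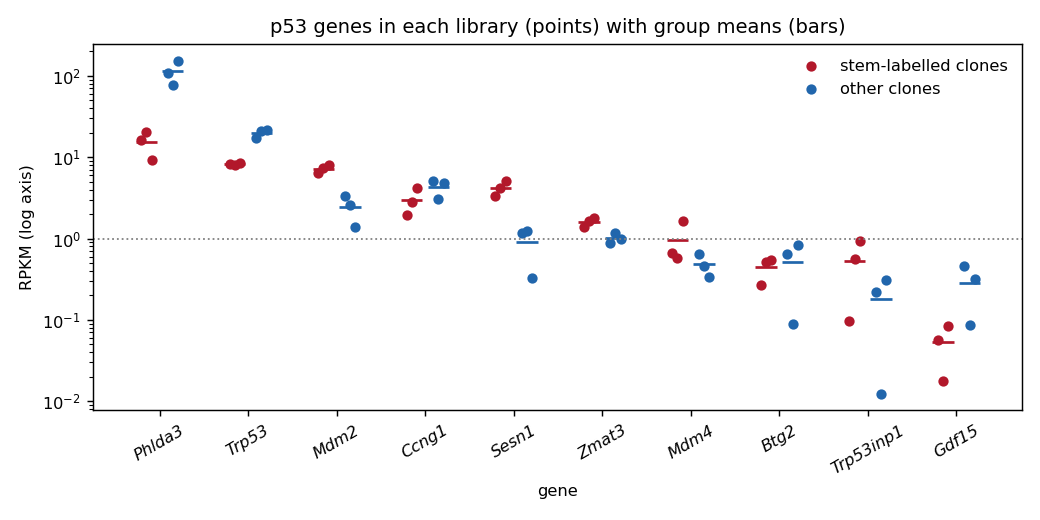
RPKM (log axis) of the 10 genes in each of the 6 libraries, ordered by their mean, with bars for the group means and a dotted line at 1 RPKM. Phlda3 and Trp53 lie lower and Mdm2 and Sesn1 higher in every stem-labelled library, and the 4 untested genes lie mostly under 1 RPKM.

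Trp53 (ENSMUSG00000059552) lies on the plus strand of chromosome 11, from 69580359 to 69591873 on GRCm38, head to head with Wrap53, a gene on the minus strand whose listed end is 69580255. Wrap53 encodes a protein that guides telomerase RNA, and some of its transcripts are known to run antisense to the start of Trp53. Their exons do not overlap in the annotation used, GENCODE M21. The 103 bases between the genes (chr11:69580256-69580358, plus strand, RefSeq on GRCm38.p6) are shown because both genes start from them and fell alike on the deposited scale. Capitals mark a match to the consensus of the p53 half-site, the 10-base unit of which p53 binds a pair.
Wrap53 to Trp53: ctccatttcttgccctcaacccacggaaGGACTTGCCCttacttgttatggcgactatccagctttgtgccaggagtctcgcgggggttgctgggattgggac

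Windows from 250 bases before to 50 after the start were held by RefSeq (GRCm38.p6) for 8 of the 10 genes, all but Zmat3 and Trp53inp1. The half-site consensus, which reads the same on both strands, occurred in a window of 4 of these 8 genes. It occurred in one of 10 of 40 other p53 targets (25%, from the lists described below) and of 9.55% of all genes with a window. Counted by window, the shares were 4 of 11, 11 of 52 and 8.36%. The 4 genes among the 8 were Trp53, Mdm2, Ccng1 and Sesn1, of which 2 were called higher, 1 lower and 1 was not called. For Sesn1 the match lay before its downstream start, inside the gene. Cdkn1a, the best known p53 target, held 2 matches in the window of its upstream start and 0 in that of its downstream start. A match alone is a stretch of letters and does not show binding, which was not measured here. The half-sites known to matter in Mdm2 lie further downstream, in its first intron. Matches in Mdm2, Sesn1 and Ccng1, and the one of Cdkn1a nearer to its start, are printed in capitals with the 20 bases on either side, 5′ to 3′ on the strand of the gene. They are shown because genes with such a match were called higher (Mdm2, Sesn1), lower (Trp53, Cdkn1a) or not at all (Ccng1). Distances for Cdkn1a are counted from its upstream start. The other match of Cdkn1a, 73 to 64 bases before that start, overlaps the printed stretch and is left in lower case there.
Mdm2, chr10:117710915-117710964, minus strand, 186 to 177 bases before the start: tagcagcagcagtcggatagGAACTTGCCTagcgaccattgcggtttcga
Sesn1, chr10:41887246-41887295, plus strand, 173 to 164 bases before the downstream start: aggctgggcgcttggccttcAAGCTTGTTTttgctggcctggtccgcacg
Ccng1, chr11:40755442-40755491, minus strand, 185 to 176 bases before the start: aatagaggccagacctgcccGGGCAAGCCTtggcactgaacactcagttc
Cdkn1a, chr17:29090908-29090957, plus strand, 51 to 42 bases before the start: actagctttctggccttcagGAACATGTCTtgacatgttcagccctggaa

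Trp53 transcript stood at 8.20, 8.01 and 8.57 RPKM in stem-labelled replicates 1 to 3 and at 17.2, 21.1 and 21.6 RPKM in those of the other clones. The stem-labelled libraries were close to one another, and all 3 were below every other library. The means of 8.26 ± 0.284 and 19.99 ± 2.40 RPKM differed 2.42-fold, a change of -1.17 ± 0.19 (limma adjusted p = 0.000953). Of tested genes in the same length class, 3635 to 4339 bases, 18.9% were called lower and 30.7% higher. On rescaling the change was -0.30 and missed the threshold (adjusted p = 0.269), while the median of all genes stood at 0.86. Relative to that median Trp53 changed by -1.29 on the deposited scale and by -1.16 on the rescaled one. After the length and GC correction it changed by -1.504 (adjusted p = 0.000277). By rank among all genes listed, which no scaling of a library alters, Trp53 stood at percentiles 76.5, 76.2 and 77.4 of the stem-labelled libraries and 85.4, 86.7 and 86.8 of the others. Its longest transcript shares 2.94% of its 50-base stretches with transcripts of other genes.

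Wrap53 fell together with Trp53, from 15.6 ± 2.46 to 6.24 ± 1.10 RPKM (-1.20 ± 0.21, limma adjusted p = 0.00141). The ratio of Trp53 to Wrap53 within a library was 1.10, 1.33 and 1.63 in stem-labelled clones, against 1.32, 1.35 and 1.20, so the groups overlapped. After the correction Wrap53 changed by -0.50 and missed the threshold (adjusted p = 0.0545), and it missed it on rescaling too (-0.35, adjusted p = 0.206). The strand used in counting is not given in the sources used here, so reads from antisense Wrap53 transcripts in Trp53 exons cannot be told from Trp53 reads. Over the 6 libraries the genes whose log2 values followed Trp53 most closely were Trmt112-ps2 (Pearson r = 0.996), Ube2n (0.994), Gm14165 (0.992), Coq6 (0.990) and Mrps18b (0.989), among 5949 genes with a mean of at least 5 RPKM. Of these, Trmt112-ps2 and Gm14165 are 378 and 952 bases long, in the shortest length class, where 61.1% of tested genes were called lower. Wrap53 ranked 93 in the order of correlation with Trp53 (r = 0.972). These 6 points share the split into 2 kinds of clone and the library totals, so the correlations describe that split as much as the genes.

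Mdm2 (ENSMUSG00000020184, chromosome 10, 117688888 to 117710758) encodes the ubiquitin ligase that removes p53. It stood at 6.47, 7.35 and 7.93 RPKM in the stem-labelled clones and at 3.34, 2.62 and 1.39 RPKM in the other clones. Every stem-labelled library was above every other library, and the lowest value was that of replicate 3 of the other clones. The means of 7.25 ± 0.734 and 2.45 ± 0.987 RPKM differed 2.96-fold (1.30 ± 0.24, limma adjusted p = 0.00189). Of tested genes of similar length, 4340 to 5197 bases, 37.2% were called higher. Mdm2 changed by 2.02 on rescaling and by 0.80 after the correction, which left it called (adjusted p = 0.0152). The call was kept in each of the 15 alternatives that tested it, with adjusted p from 4.74e-05 to 0.0234. A filter on a mean of at least 5 RPKM removed it, since its mean was 4.85 RPKM.

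Mdm4 (chromosome 1, 132959484 to 133030561) encodes a relative of Mdm2 that binds p53 and blocks its activity without being a strong ligase. Its levels were 0.667, 0.581 and 1.65 RPKM against 0.646, 0.462 and 0.336 RPKM. The groups overlapped, and only replicate 3 of the stem-labelled clones passed 1 RPKM. Because the gene is long, these values rest on 1326 and 249 reads. Without a filter on low values its change was 0.37 ± 0.22 and did not pass (limma adjusted p = 0.271, 95% interval -0.17 to 0.92). Of its 50-base stretches 15.5% occur in transcripts of other genes. The ratio of Mdm2 to Mdm4 was 9.05 ± 3.95 in stem-labelled clones, against 4.99 ± 0.776, with overlapping groups.

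Within a library the ratio of 2 genes does not depend on the library total. The ratio of Mdm2 to Trp53 was 0.789, 0.917 and 0.925 in the stem-labelled clones and 0.194, 0.124 and 0.0643 in the other clones, a 7.56-fold difference of the geometric means. Sesn1 over Trp53 was 0.401, 0.527 and 0.599 against 0.0673, 0.0584 and 0.0152, and Phlda3 over Trp53 was 1.996, 2.51 and 1.08 against 6.29, 3.65 and 7.12. None of these 3 ratios overlapped between the kinds. For Mdm2 and Sesn1 this follows from the single genes, since both were higher and Trp53 lower in every stem-labelled library. The pairs were also chosen after their values were seen, so the ratios restate those levels and are no further test. Over the 6 ratios computed, the exact two-sided permutation p for each of the 3 was 0.1, the smallest that 3 libraries against 3 allow, or 0.2 after Benjamini-Hochberg adjustment. The ratios still carry any difference in how long and short genes were captured.

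**Figure D2:**
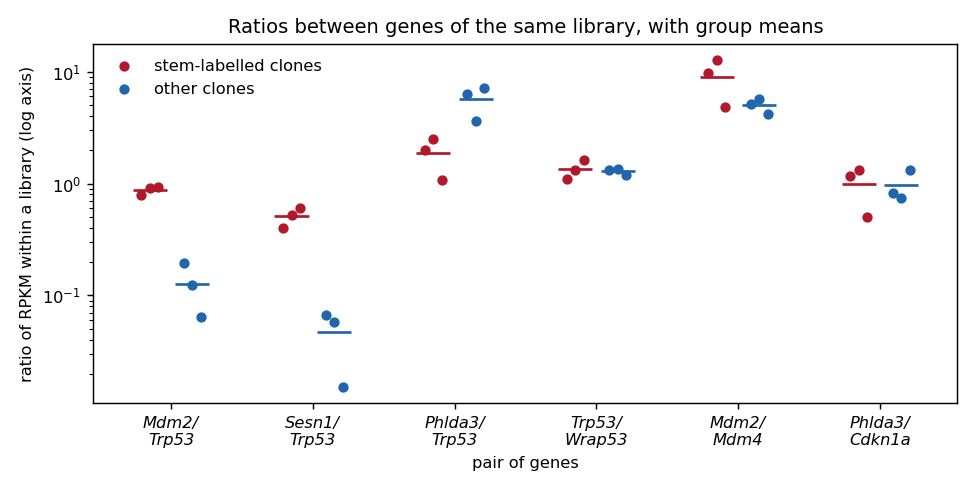
Ratios of RPKM between pairs of genes in the same library (log axis), with bars for the group means. Mdm2/Trp53 and Sesn1/Trp53 are higher and Phlda3/Trp53 lower in every stem-labelled library, while Trp53/Wrap53, Mdm2/Mdm4 and Phlda3/Cdkn1a overlap.

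Ccng1 and Btg2 are targets tied to the cell cycle. Ccng1 (chromosome 11, 40748552 to 40755311) encodes cyclin G1, which brings a phosphatase to Mdm2. Its levels were 1.97, 2.83 and 4.23 RPKM against 5.04, 3.07 and 4.86 RPKM, and replicate 3 of the stem-labelled clones lay above replicate 2 of the other clones. The change of -0.43 ± 0.26 did not pass (limma adjusted p = 0.188, 95% interval -1.01 to 0.16) and had the opposite sign on rescaling (0.31). It was -0.07 after the correction. Btg2 (chromosome 1, 134075170 to 134079120) encodes an antiproliferative protein that recruits the enzymes that shorten messenger RNA tails. It stood at 0.269, 0.517 and 0.543 RPKM against 0.642, 0.0879 and 0.833 RPKM, on 112 and 47 reads. The other clones spanned the whole range of the stem-labelled ones, and the change without a filter was -0.05 ± 0.21 (limma adjusted p = 0.883), and its difference had the opposite sign on rescaling (0.26).

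Sesn1 and Phlda3 are targets that restrain growth signalling, and they moved in opposite directions. Sesn1 (ENSMUSG00000038332, chromosome 10, 41810574 to 41908424) encodes a sestrin, a protein that holds back the growth kinase complex mTORC1. It stood at 3.29, 4.22 and 5.13 RPKM in the stem-labelled clones and at 1.16, 1.23 and 0.328 RPKM in the other clones. All 3 stem-labelled libraries were above the others, where replicate 3 rested on 11 reads. The means of 4.22 ± 0.921 and 0.907 ± 0.502 RPKM differed 4.65-fold, a change of 1.47 ± 0.25 (limma adjusted p = 0.00108). It was 2.05 on rescaling and 1.10 after the correction (adjusted p = 0.00506), and the call was kept in each of the 15 alternatives that tested it. Of tested genes in its length class, 3011 to 3634 bases, which also holds Ccng1, 28.3% were called higher and 20.9% lower. Its relative Sesn2, also a p53 target and known to respond to nutrient stress, stood at 1.80 ± 0.628 against 2.31 ± 0.153 RPKM and did not pass (-0.27 ± 0.21, adjusted p = 0.300), with the opposite sign on rescaling (0.36) and after the correction (0.14).

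Phlda3 (ENSMUSG00000041801, chromosome 1, 135766119 to 135769136) encodes a small protein that competes with the kinase AKT for membrane lipid. It was the most abundant of the 10 genes in all 6 libraries. Its levels were 16.4, 20.1 and 9.26 RPKM in the stem-labelled clones and 109, 77.1 and 154 RPKM in the other clones. The highest stem-labelled value was well under the lowest other value. The means of 15.3 ± 5.52 and 113 ± 38.6 RPKM differed 7.42-fold, a change of -2.82 ± 0.34 (limma adjusted p = 0.000236). Phlda3 is short, at 1559 bases, and 48.5% of tested genes of 1076 to 1789 bases were called lower and 7.23% higher, with a median change of -0.73. After the correction its change was -1.45 (adjusted p = 0.00247) and on rescaling -1.91. It was called lower in each of 16 alternatives.

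The change of Zmat3, which encodes a zinc finger protein that binds RNA and alters splicing, took either sign depending on the processing. Zmat3 (chromosome 3, 32334792 to 32366014) stood at 1.40, 1.63 and 1.76 RPKM against 0.888, 1.17 and 0.981 RPKM. The groups did not overlap, but the change of 0.37 ± 0.17 missed the threshold (limma adjusted p = 0.0945). On rescaling it was called higher (0.89, adjusted p = 0.00268), and after the length and GC correction lower (-0.61, adjusted p = 0.0133). Of tested genes of 8323 bases or more, where Zmat3 lies, 59.6% were called higher and 4.76% lower.

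Trp53inp1 and Gdf15 were close to the floor of the assay. Trp53inp1 (chromosome 4, 11156431 to 11174379) encodes a cofactor of p53 that also acts in autophagy. It stood at 0.0976, 0.565 and 0.931 RPKM against 0.220, 0.0124 and 0.307 RPKM, on 323 and 38 reads, with overlapping groups and a change of 0.35 ± 0.22 without a filter (limma adjusted p = 0.293). Gdf15 (chromosome 8, 70629393 to 70632456) encodes a secreted stress hormone of the TGF-beta family. It had 3, 1 and 5 reads in stem-labelled libraries, against 10, 2 and 6 reads, or 0.0569, 0.0178 and 0.0838 against 0.453, 0.0868 and 0.322 RPKM. The groups did not overlap in RPKM, where the nearest libraries were almost level, and they did overlap in reads. Without a filter the change was -0.28 ± 0.11 and did not pass (limma adjusted p = 0.107).

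**Figure D3:**
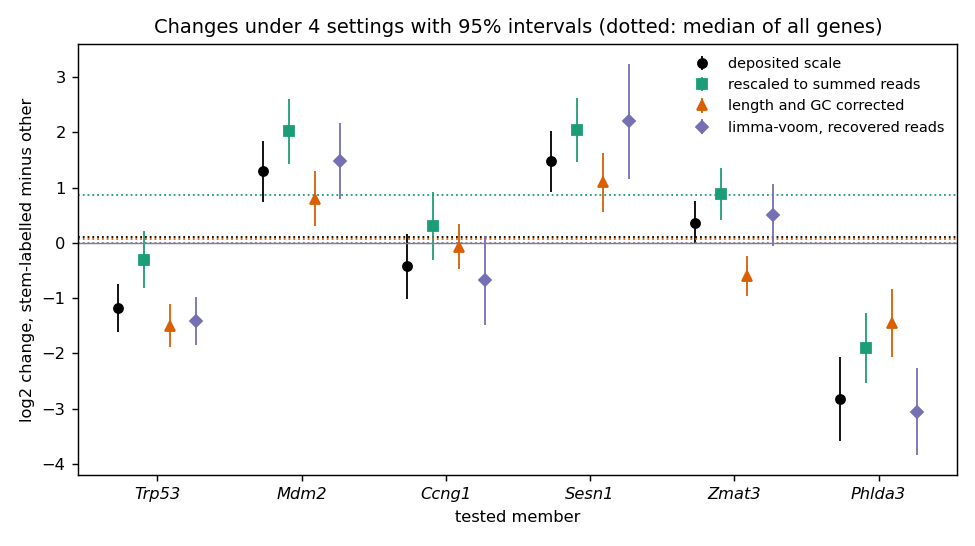
log2 change (stem-labelled minus other) with 95% interval of the 6 tested genes on the deposited scale, after rescaling to reads in genes, after the length and GC correction and by limma-voom on recovered reads, with dotted lines at the median of all tested genes under each. Mdm2 and Sesn1 are above and Phlda3 below 0 under all 4, the interval of Trp53 crosses 0 on rescaling, and Zmat3 takes both signs.

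The order of the 10 genes by level restates the same RPKM values and is no further test. Phlda3 ranked 1 and Trp53 ranked 2 in every library, so the order does not show their lower levels in the stem-labelled clones. Mdm2 ranked 3 and Ccng1 ranked 5 in each stem-labelled library, while in each other library Ccng1 ranked 3 and Mdm2 ranked 4. In the stem-labelled clones Mdm2 at 7.25 ± 0.734 RPKM was close to Trp53 at 8.26 ± 0.284 RPKM, with Trp53 higher in each library. In the other clones the gene next to Trp53 was Ccng1, at 4.32 ± 1.09 RPKM. Mdm4 ranked 7 in every library. Gdf15 ranked 10 in each stem-labelled library, and Trp53inp1 ranked 10 in each other library.

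**Figure D4:**
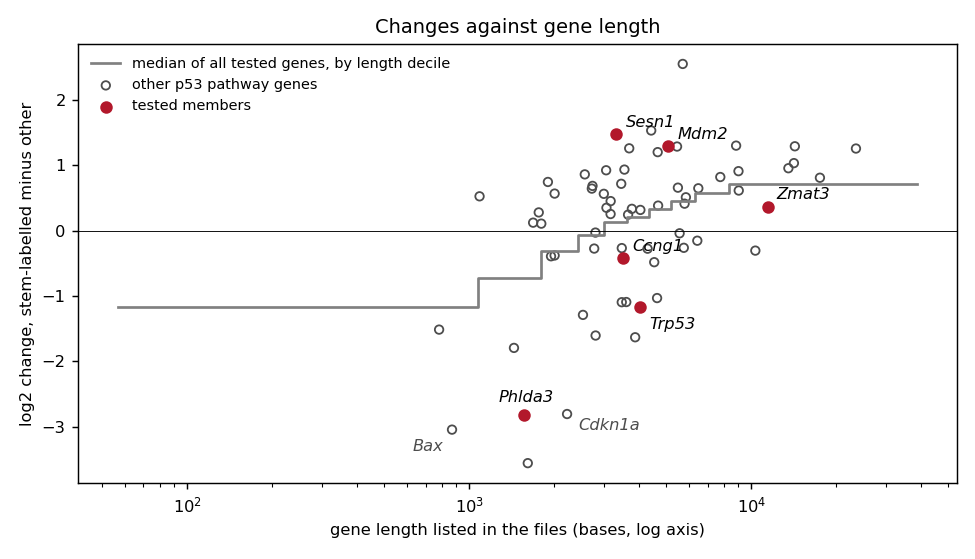
log2 change on the deposited scale against the listed gene length (log axis) for the 6 tested genes (filled), the 60 other p53 pathway genes tested (open), and the median of all tested genes in each length class (grey line). Phlda3, Trp53 and Cdkn1a lie below and Mdm2 and Sesn1 above the line at their lengths, and Zmat3 lies under it.

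A list of 74 other genes of the pathway was examined, of which 69 are in the files and 60 were tested. In the stem-labelled clones 25 of the 60 rose, 11 fell and 24 did not pass. These are 41.7% and 18.3%, where all tested genes gave 29.9% and 25.4%, and the median change was 0.37 against 0.11. After the length and GC correction 17 rose and 9 fell, 28.3% and 15% where all tested genes gave 25.9% and 22%. Without replicates 1, 2 and 3 of the stem-labelled clones, each in turn, 13 of 54, 13 of 54 and 14 of 51 rose. In these fits 21.6%, 22.4% and 22.2% of all tested genes rose. Of the 41 tested targets without the regulators, 13 rose and 9 fell, 31.7% and 21.95%, with a median of 0.12, which are shares near those of all tested genes. Without stem-labelled replicates 1, 2 and 3, each in turn, 7 of 39, 6 of 39 and 8 of 37 of them rose.

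Of 24 relatives and regulators of p53, 19 were tested, of which 12 rose, 2 fell and 5 did not pass, where 29.9% of all tested genes rose and 25.4% fell. After the correction 7 rose and 2 fell, where 25.9% and 22% did. The most abundant were Trim28, a corepressor that works with Mdm2, at 106 ± 17.2 against 88.8 ± 37.3 RPKM (0.32 ± 0.32, limma adjusted p = 0.417, but called on rescaling at 1.25, adjusted p = 0.00483), and Kat5, an acetyltransferase of p53, at 24.1 ± 2.97 against 16.0 ± 2.63 RPKM (0.57 ± 0.21, adjusted p = 0.0474). The call of Kat5 was lost without each of the 6 libraries in turn (adjusted p from 0.0507 to 0.170), while after the correction its change was larger and called (1.07, adjusted p = 0.00201). Trp63, a relative of p53 active in basal epithelium, was at most 0.0157 RPKM in any library. Trp73, Cdkn2a and Trp53rk were not analysed here.

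Of 8 tested targets that act in arrest, 2 rose, 3 fell and 3 did not pass, where 29.9% of all tested genes rose and 25.4% fell. After the correction 1 rose and 2 fell, where 25.9% and 22% did. Cdkn1a, which encodes the inhibitor p21 of cyclin-dependent kinases, stood at 14.2, 15.3 and 18.3 RPKM against 133, 104 and 116 RPKM. It fell by 2.81 on the log2 scale (SE 0.22, limma adjusted p = 0.000109) and by 2.46 after the correction, and it was called lower in each of 16 alternatives. Of tested genes of similar length 35.8% were called lower and 15% higher. The ratio of Phlda3 to Cdkn1a was 0.991 ± 0.428 in stem-labelled clones, against 0.961 ± 0.319. Levels of Sfn, an epithelial gene that blocks entry into mitosis, fell from 98.1 ± 53.02 to 6.95 ± 2.56 RPKM (-3.56 ± 0.37, limma adjusted p = 0.000144). Its 1613 bases place it in the length class of Phlda3, where 48.5% of genes were called lower, and its change was -2.31 after the correction (adjusted p = 0.00113).

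Of 12 tested targets that act in apoptosis, 4 rose, 2 fell and 6 did not pass, where 29.9% of all tested genes rose and 25.4% fell. After the correction 4 rose and 1 fell, where 25.9% and 22% did. Bax, which opens the mitochondrial outer membrane, stood at 158 ± 36.5 against 1344 ± 517 RPKM (-3.05 ± 0.35, limma adjusted p = 0.000205). It is 869 bases long, 61.1% of tested genes of up to 1075 bases were called lower and 5.24% higher, and after the correction its change was -1.28 (adjusted p = 0.00324). Of its 50-base stretches 13.8% occur in transcripts of other genes. Siva1, a small proapoptotic gene of 782 bases, changed by -1.52 ± 0.33 and missed the threshold after the correction (-0.65, adjusted p = 0.110) and on rescaling (-0.58, adjusted p = 0.121). All 6 DNA repair targets were tested: 4 were called higher, 0 lower and 2 neither, where 29.9% and 25.4% of all tested genes were called higher and lower. Their median was 0.58, or 0.03 with the correction. The correction called 2 of the 6 higher and 0 lower, where 25.9% and 22% of all tested genes were. Polh, a polymerase that copies across damage, rose by 0.86 ± 0.22 (0.79 after the correction, adjusted p = 0.0107, and 1.70 on rescaling). Xpc, a damage sensor, rose by 0.66 ± 0.18, but missed the threshold when stem-labelled replicate 2 was left out (adjusted p = 0.0511) and after the correction (0.05, adjusted p = 0.850).

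Of 11 tested targets in metabolism and autophagy, 2 rose, 3 fell and 6 did not pass, where 29.9% of all tested genes rose and 25.4% fell. After the correction 3 rose and 3 fell, where 25.9% and 22% did. Gpx1, a glutathione peroxidase, fell from 1272 ± 211 to 370 ± 91.7 RPKM (-1.80 ± 0.33, limma adjusted p = 0.00156, and -0.85 on rescaling). After the correction it changed by -0.64 (adjusted p = 0.0462), and it missed the threshold when the replicate number was added to that fit as a block (adjusted p = 0.0865). Its 1441 bases place it in the length class of Phlda3, where 48.5% of genes were called lower. Ddit4, a brake on mTORC1, stood at 49.5, 142 and 86.7 RPKM against 78.5, 70.8 and 85.2 RPKM and did not pass (0.12 ± 0.36, limma adjusted p = 0.788). Its sign turned without replicate 2 of the stem-labelled clones (-0.25), and after the correction it was called higher (1.20, adjusted p = 0.0205), as on rescaling (1.05, adjusted p = 0.0152). Of 4 tested surface and secreted targets, 1 rose and 1 fell, against the same 29.9% and 25.4% of all tested genes. After the correction 0 rose and 1 fell. The ephrin receptor Epha2 did not pass (0.38 ± 0.24, adjusted p = 0.199) but was called higher on rescaling (1.30, adjusted p = 0.000585) and under upper-quartile scaling (0.64, adjusted p = 0.0311), and the growth factor gene Tgfa was called higher (0.65 ± 0.21, adjusted p = 0.0266). Its change was -0.16 under the length and GC correction, and its call was lost without replicate 1 or 3 of either kind (adjusted p from 0.0547 to 0.0887).

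**Figure D5:**
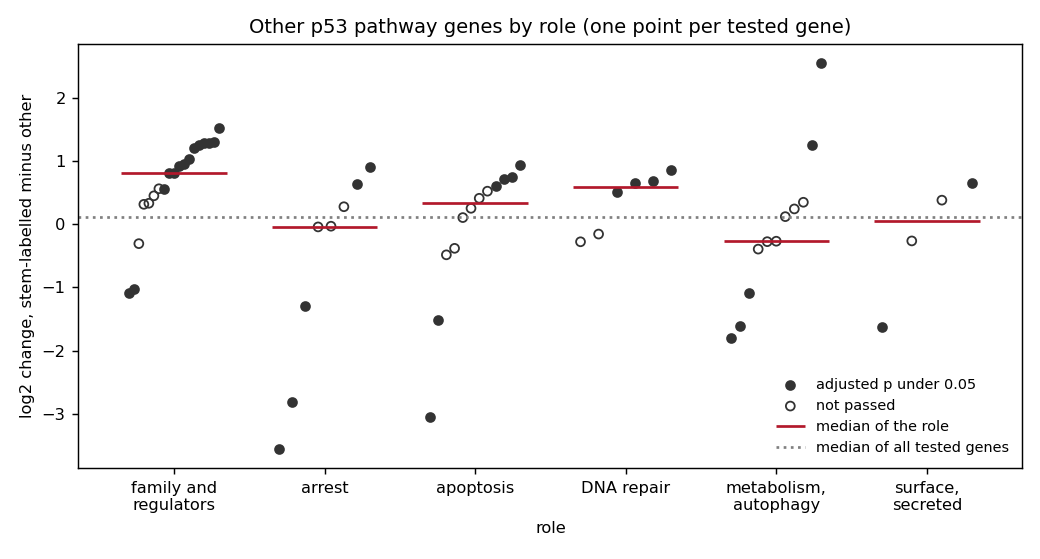
log2 change on the deposited scale of the 60 other p53 pathway genes tested, by role, with filled points for adjusted p under 0.05, a red bar for the median of each role and a dotted line for the median of all tested genes (0.11). The regulators lie mostly above the dotted line, and the lowest points are Sfn, Bax and Cdkn1a.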

How the data were processed

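The authors deposited 1 file per library, in RPKM by its description and values, with no unit in the header. The submitters' processing notes name Bowtie2 2.0.6, TopHat2 2.0.9 and mm9 without roles, while the listed coordinates match GRCm38 (80.6% of genes start and end as in GENCODE M21). The counting program is not given in the sources used here. RPKM times gene length gave whole multiples of 1 step per library (tolerance 0.01, 100.0% of values above 0), which returned the reads; for a 1-kilobase gene, each read adds 0.0311 to 0.0993 RPKM. Tissue labels gave the groups, titles the replicate numbers. Genes with at least 1 RPKM in at least 3 libraries were tested with limma 3.58.1 (R 4.3.3, trend) on log2(RPKM + 1), a test checked on simulated data. The simulation changed few genes and held no trend with length or GC content and no mismatch of library totals. The check therefore does not cover those features of the real libraries. The correction subtracted natural splines (5 degrees of freedom) of log2 length and GC content from each library. limma-voom on the recovered reads called 2600 genes higher and 2872 lower. Members, lists and tests were chosen with earlier results of these data known. Named genes were the 10, the 2 most abundant tested genes of each role, Cdkn1a, Wrap53 and the 5 genes most correlated with Trp53; Sesn2 and the pairs for ratios were chosen after their values were seen.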

Additional observations from a re-analysis of the deposited data

How the results depend on the processing

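Under 16 alternatives the calls of Mdm2, Sesn1 and Phlda3 held wherever the gene was tested. All genes called higher and lower, 3014 and 2563, became 5926 and 1245 on rescaling to reads in genes, and 1405 were higher when only genes with a mean of 5 RPKM or more were kept, which tests fewer genes. Genes of the 10 called higher became 0 under that filter, which removed Mdm2 and Sesn1, and those called lower became 1 on rescaling, where Trp53 was lost. For the other pathway genes, 25 higher and 11 lower, rescaling gave 40 and 6. These are 66.7% and 10%, where all tested genes gave 58.7% and 12.3%. The filter gave 12 higher (36.4%, against 23.6% of all tested genes), and the correction with the replicate block 15 higher (25%, against 23.0%). Leaving out each library gave 2068 to 3034 genes higher and 2149 to 2302 lower, and 2 and 2 of the 10 genes. Of the other pathway genes it gave 13 to 23 higher and 11 to 12 lower. Without replicates 1, 2 and 3 of the other clones, each in turn, 35.1%, 39.7% and 33.9% of these rose. All tested genes gave 27.8%, 31.0% and 26.4% there. On leaving out each library 19.3% to 22.2% of the other pathway genes fell, where 22.1% to 23.5% of all tested genes did. Signs turned for Ccng1 on rescaling (0.31), Zmat3 after the correction with and without the block (-0.61), and Tgfa likewise (-0.16). The sign of Ddit4 turned by limma-voom (-0.0238) and without replicate 2 of the stem-labelled clones (-0.25, where leaving out each library gave -0.25 to 0.51). That of Sesn2, called in neither, turned on rescaling (0.36) and after the correction (0.14). Values near 0 with no call also turned: Btg2 (-0.05) on rescaling (0.26), with a pseudocount of 0.1 (0.06) and on leaving out libraries (-0.27 to 0.10), and the log2 ratios Phlda3/Cdkn1a (-0.28 to 0.41) and Trp53/Wrap53 (-0.09 to 0.19) on leaving out libraries. The block took the call from Kat5 (limma adjusted p = 0.0925) and Tgfa (limma adjusted p = 0.0552). With it 9 of the 41 targets without the regulators were called higher (21.95%), where 27.1% of all tested genes were. Without it 13 of the 41 were (31.7%), where 29.9% of all tested genes were. The cause was not tested. Libraries with the same number did not deviate together (correlations of -0.125, 0.0255 and -0.0848 for numbers 1 to 3). Pairs with unlike numbers gave -0.107 to 0.186. With 3 libraries per kind these values cannot tell whether libraries of the same number came from the same experiment. With the replicate number as a block, 2735 genes were higher and 2477 lower, which are 27.1% and 24.5% of those tested. Of the other pathway genes 20 were higher and 11 lower (33.3% and 18.3%), and of the 10 genes 2 and 2.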

Other observations

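Of the other pathway genes, 3 are named here that were picked with their values in view, because they were called the same way under each alternative that tested them. Steap3, an iron reductase that p53 is known to induce, stood at 24.1, 34.6 and 19.2 RPKM in stem-labelled clones, against 2.58, 5.62 and 2.75 RPKM (2.55 ± 0.30, 1.94 after the correction, 3.35 on rescaling, limma adjusted p = 0.000223). Pank1, a kinase of coenzyme A synthesis, stood at 3.83 ± 1.04 against 0.995 ± 0.302 RPKM (1.26 ± 0.22, 1.01 after the correction and 1.86 on rescaling). Fdxr, the ferredoxin reductase of mitochondria, was lower at 5.26 ± 1.37 against 18.04 ± 3.97 RPKM (-1.61 ± 0.25, -0.94 after the correction and -0.77 on rescaling).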
